A study of Mus musculus with 13 samples.

Results

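Fos, Fosb, Jun, Junb, Jund, Egr1, Egr2, Egr3, Ier2 and Ier5 are 10 immediate early genes, taken by symbol from the 22367 protein-coding genes of the mouse annotation GENCODE M1 on the assembly mm9 (NCBIM37). For each gene the regions of 8 deposited ChIP-seq lists were taken at the promoter (the annotated 5′ end with 250 bp on either side), in the gene body (the rest of the gene) and within 10 kb of the gene. ChIP-seq sequences the DNA that an antibody brings down, and stretches enriched in reads are listed as peaks or regions.

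The study asked how KAP1, a corepressor encoded by Trim28, relates to active chromatin and to the 2 RNA polymerases in Hepa 1-6, a mouse hepatoma line. Cells in standard culture were used for KAP1 and for the histone marks H3K9me3, H3K4me1 and H3K27ac. PolII (antibody to the repeats at the C-terminal end of the enzyme) and PolIII (antibody to its subunit RPC32) were profiled 5 days after transduction, in control cells and in cells given a hairpin against KAP1 (Kap1 KD). The vector in the control cells is called a control hairpin in the labels and an empty vector in the methods, and both kinds of cells were selected with puromycin per the methods. Each list came from 1 library, so no value below has a replicate error and no test between conditions could be made.

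Immediate early genes are induced within minutes of a growth or stress signal, without new protein synthesis, by factors that already sit in the cell. Serum response factor with its Ets partners binds CArG boxes, and CREB binds cAMP response elements. Many of these genes are known to carry paused PolII just inside the gene before they are induced. The Fos and Jun proteins pair to form the AP-1 factor, the Egr proteins are zinc finger factors that bind GC-rich DNA, and Ier2 and Ier5 encode small regulatory proteins. H3K27ac marks active promoters and enhancers, H3K4me1 marks enhancers and the flanks of promoters, and H3K9me3 marks silenced chromatin.

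The histone lists held 57562 (H3K27ac), 74014 (H3K4me1) and 66242 (H3K9me3) regions and the KAP1 list 12470 peaks. Control cells gave 5015 PolII and 2772 PolIII peaks, and Kap1 KD cells gave 12862 and 431. No read counts belong to the lists, so an effect of the knockdown on the number and width of PolII peaks and an effect of sequencing depth cannot be told apart. At Trim28, the targeted gene, the PolII span was 2610 bp in the control and 2409 bp under Kap1 KD, which does not measure its messenger RNA. H3K27ac lay over the promoters of 5 of 10 hepatocyte markers, among them Alb and Afp, and of 2 of 11 markers of other liver and blood cells (Col1a1 and Krt19), against 20.0% of all promoters. PolII lay over 0 of the 10 hepatocyte marker promoters in the control (13.1% of all genes) and over 2 under Kap1 KD (23.3%). Of the 11 other markers, Cd68 alone had PolII over the promoter, in both conditions. H3K4me1 lay over 1 hepatocyte marker promoter and over 4 of the 11 others, against 11.9% of all promoters.

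The 250 bases before the annotated 5′ ends are given below for the 3 genes whose promoters carried PolII in both conditions. They were read from mm9 on the strand of the gene, here the minus strand, at chr8:87502618-87502867 for Junb, chr8:87186752-87187001 for Ier2 and chr1:156946767-156947016 for Ier5. Capitals mark a TATAAA box and the TGACG core of the cAMP response element or, where the palindrome TGACGTCA is whole, all of it.
Junb: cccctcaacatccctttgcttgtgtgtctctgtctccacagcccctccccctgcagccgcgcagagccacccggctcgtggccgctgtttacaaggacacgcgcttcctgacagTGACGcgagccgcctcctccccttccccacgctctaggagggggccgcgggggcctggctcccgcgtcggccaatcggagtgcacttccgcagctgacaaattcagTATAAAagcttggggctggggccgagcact
Ier2: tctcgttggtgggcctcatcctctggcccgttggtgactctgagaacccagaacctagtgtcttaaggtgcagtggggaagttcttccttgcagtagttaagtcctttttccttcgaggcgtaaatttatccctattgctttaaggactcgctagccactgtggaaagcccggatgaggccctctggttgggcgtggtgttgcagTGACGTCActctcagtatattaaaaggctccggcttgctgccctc
Ier5: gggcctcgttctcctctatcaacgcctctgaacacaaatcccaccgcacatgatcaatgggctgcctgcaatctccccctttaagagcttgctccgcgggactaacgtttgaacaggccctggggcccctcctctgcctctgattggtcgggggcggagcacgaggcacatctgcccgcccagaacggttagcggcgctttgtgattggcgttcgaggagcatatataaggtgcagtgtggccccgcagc

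Junb held a TATAAA box 30 to 25 bases before its 5′ end and a TGACG core 136 to 132 bases before it. Ier2 was the only member with the whole cAMP response element in 250 bases, at 45 to 38 bases before its 5′ end, and 1.91% of all protein-coding promoters held it in a window of that length. Ier5 held no exact match to these motifs. It had 2 GGGCGG (Sp1) sites, at 99 to 94 and 75 to 70 bases before its 5′ end. Variants of TATAAA were not searched, so the tatataa near the end of the Ier5 stretch was not counted.

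Fos had no polymerase peak, and 300 bases of its upstream DNA are given because 3 kinds of site fall within or near them. The choice was made after the matches were seen. The stretch was chr12:86814490-86814789, plus strand, and ends 50 bases before the 5′ end. Capitals mark the CArG box and the TGACG cores, which appear as CGTCA where the match was on the other strand.
Fos: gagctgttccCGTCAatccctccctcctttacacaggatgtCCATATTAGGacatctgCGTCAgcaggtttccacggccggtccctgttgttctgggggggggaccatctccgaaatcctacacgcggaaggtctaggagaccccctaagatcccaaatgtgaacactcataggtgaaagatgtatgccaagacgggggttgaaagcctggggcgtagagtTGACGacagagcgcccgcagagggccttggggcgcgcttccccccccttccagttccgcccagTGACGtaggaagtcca

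Fos held a CArG box 309 to 300 bases before its 5′ end and 4 TGACG cores within 500 bases, at 340 to 336, 292 to 288, 129 to 125 and 66 to 62 bases before it. A TATAAA box followed at 33 to 28 bases before the 5′ end. Over all 10 genes, the CArG box was found in 250 bases at Egr1 alone (1.34% of all promoters) and in 500 bases at Fos, Fosb and Egr1 (2.70%). Egr1 had 5 copies within 500 bases, 2 of them within the last 105. The TGACG core was found in 250 bases at Fos, Fosb, Junb, Egr1 and Ier2 (19.4% of all promoters), and TATAAA at Fos and Junb (12.3%). The Ets core GGAAG was found at 8 genes (64.0%), the Sp1 site GGGCGG at 5 (39.6%), the Egr site GCGNGGGCG at Fosb alone (6.0%) and the AP-1 site TGANTCA at 0 (6.0%). All motifs were searched on both strands, before the annotated 5′ end alone and not before later transcript starts. The Egr site can overlap the Sp1 site, as at Fosb, the Ets core can overlap the CArG box, as at Egr1, and the TGACG core lies within the whole element. A match is a description of the letters and not a bound site.

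Upstream DNA is also given for the 3 genes where a KAP1 peak lay in the gene but not over the promoter and no PolII peak lay over the promoter. The stretches were chr8:73221388-73221637 for Jund, chr10:66997973-66998222 for Egr2 and chr14:70477002-70477251 for Egr3, each on the plus strand. None held a CArG box, a TGACG core or a TATAAA box, so no base is in capitals. The DNA before the later transcript starts of these genes was not searched for motifs.
Jund: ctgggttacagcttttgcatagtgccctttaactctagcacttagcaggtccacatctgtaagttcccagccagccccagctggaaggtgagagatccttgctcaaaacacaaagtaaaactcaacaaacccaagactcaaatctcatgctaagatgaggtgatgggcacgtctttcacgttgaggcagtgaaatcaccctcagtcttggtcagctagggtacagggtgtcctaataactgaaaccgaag
Egr2: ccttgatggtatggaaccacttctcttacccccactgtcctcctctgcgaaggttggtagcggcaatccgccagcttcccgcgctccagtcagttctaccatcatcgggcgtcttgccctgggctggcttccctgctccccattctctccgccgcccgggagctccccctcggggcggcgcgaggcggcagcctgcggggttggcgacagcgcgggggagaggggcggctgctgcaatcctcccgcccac
Egr3: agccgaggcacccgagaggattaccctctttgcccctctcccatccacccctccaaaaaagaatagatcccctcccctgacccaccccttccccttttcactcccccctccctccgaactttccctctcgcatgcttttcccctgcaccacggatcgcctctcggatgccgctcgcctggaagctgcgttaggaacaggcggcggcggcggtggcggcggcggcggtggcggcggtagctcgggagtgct

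The GC content of these stretches was 47.6% at Jund, 68.4% at Egr2 and 65.6% at Egr3, against a median of 54% over all protein-coding genes. The other members lay between 52.4% (Ier2) and 68.8% (Fosb). Jund was the only member below the median apart from Ier2. The 250 bases before its second annotated transcript start, 1219 bp further in, had 69.2% GC.

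Over the promoters, control PolII was called at 4 of 10 genes (Junb, Egr1, Ier2 and Ier5), against 13.1% of all protein-coding genes. Under Kap1 KD it was called at 3 (Junb, Ier2 and Ier5), against 23.3%. These 3 had PolII in both conditions (12.4% of all genes), 0 had it under Kap1 KD alone (10.9%) and Egr1 had it in the control alone (0.733%). In pooled cells, a peak carried by fewer cells and a weaker peak in each cell cannot be told apart.

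KAP1 lay over the promoters of Junb, Egr1 and Ier5 (3 of 10 genes, against 15.7%), and all 3 also had control PolII there. Over all genes, 1561 of the 3522 promoters with KAP1 had control PolII. Of all promoters with control PolII, 53.1% had KAP1, 60.1% had H3K27ac and 22.8% had H3K4me1. H3K27ac was over the promoters of Jund, Ier2 and Ier5 (3 genes, against 20.0%) and H3K4me1 over those of Junb, Jund, Ier2 and Ier5 (4 genes, against 11.9%). H3K9me3 was at 0 of the 10 promoters (5.24%), as were PolIII in the control (0.344%) and under Kap1 KD (0.134%). At all 3 promoters with H3K27ac the regions stopped short of the 5′ base itself, which was also so at 80.0% of the 4464 promoters with this mark. That base was examined after the positions were seen.

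**Figure D1:**
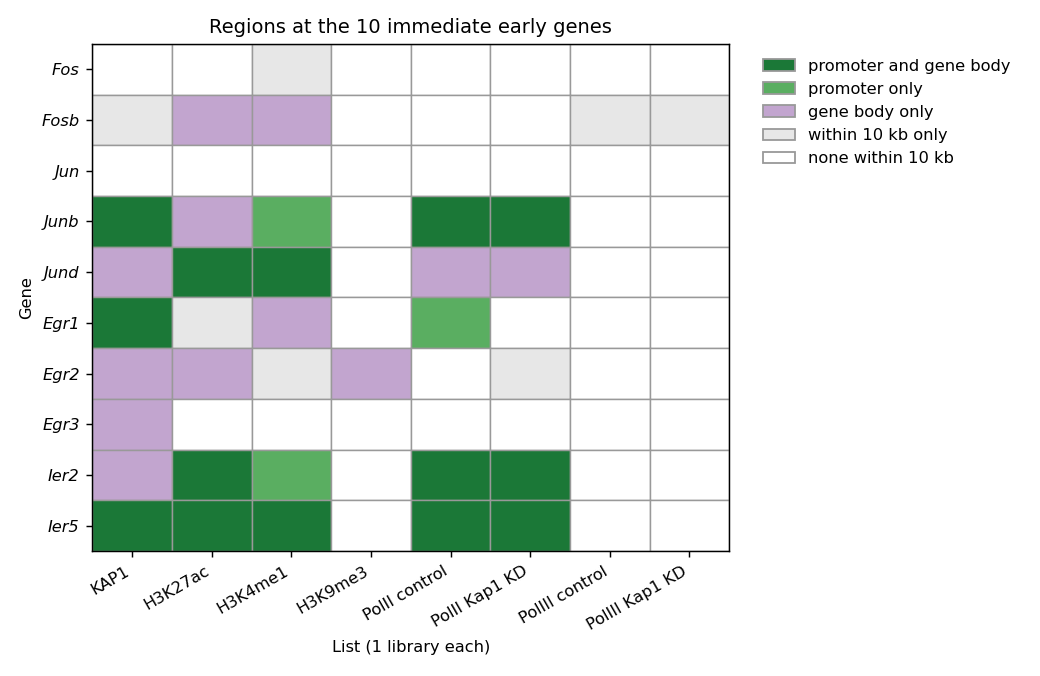
Presence of a region of each of the 8 lists (columns, 1 library each) at each of the 10 genes (rows), with the colour giving the nearest zone that holds it: promoter, gene body, within 10 kb, or none. Junb, Ier2 and Ier5 have PolII over the promoter in both conditions, Jund has it in the gene body, and the row of Jun is empty.

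In the gene bodies KAP1 was called at 7 of 10 genes (all but Fos, Fosb and Jun), against 23.7% of all genes. The peaks at Egr1, Egr3, Ier2 and Ier5 scored below the list median of 101.53, so with peaks at or above it the count was 3, and with at least 0.5 of the body covered it was 1. The share of all genes under these stricter rules was not computed, so 23.7% is not their background. At Jund, Egr2, Egr3 and Ier2 KAP1 lay in the body and not over the promoter, a combination found at 8.85% of all genes. This depends on the 5′ end used, since later transcript starts of Jund (1219 bp) and Egr2 (3208 bp) lay inside these KAP1 peaks. Taking the start of any transcript, KAP1 was over the promoters of 5 genes. The members were short, between 1522 and 7325 bp against a median of 15.4 kb, and among the 4573 protein-coding genes in that range of lengths 18.5% had KAP1 in the body. H3K27ac was in the bodies of 6 genes (41.0% of all genes, 26.0% of those of similar length), H3K4me1 in 4 (50.5% and 35.6%) and H3K9me3 in Egr2 alone (23.2% and 12.9%). PolII was in the bodies of Junb, Jund, Ier2 and Ier5 in the control (14.9% of all genes) and under Kap1 KD (27.2%). PolIII was in 0 bodies in the control (3.51% of all genes, 0.853% of those of similar length) and in 0 under Kap1 KD (0.572% and 0.175%).

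Within 10 kb, KAP1 was found at 8 genes (34.9%), H3K27ac at 7 (56.8%), H3K4me1 at 8 (63.9%) and H3K9me3 at Egr2 alone (36.8%). Control PolII was found at 5 genes (23.3%) and Kap1 KD PolII at 5 (39.0%), which were not the same 5, since Egr1 had it in the control alone and Egr2 under Kap1 KD alone. PolIII was found near Fosb alone, in the control (5.88% of all genes, 3.24% of those of similar length) and under Kap1 KD (1.39% and 0.918%). Jun had no region of any list, as did 19.1% of all genes.

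Junb, the AP-1 subunit often counted as a restraint on Jun, lies at chr8:87500811-87502617 on the minus strand. In the control a PolII peak of 4706 bp (score 316) ran from 237 bp before to 4468 bp after the 5′ end. Under Kap1 KD a peak of 7734 bp (score 915) ran from 3372 bp before to 4361 bp after it. The control also had a separate peak of 957 bp upstream, from 2438 to 1482 bp before the 5′ end, which lies within the single Kap1 KD peak, so the added length was all on the upstream side. Inside the gene and its promoter window the covered length differed by a factor of 1.01. The gene itself was covered whole in both conditions.

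Of the 3 KAP1 peaks at Junb, the first (score 141) covered the promoter from 611 bp before to 566 bp after the 5′ end. The second (score 194.73) covered the 3′ end and the DNA beyond it, from 1650 to 3451 bp after the 5′ end, and all of its 1802 bp lay in PolII peaks of both conditions. The third (score 160.75) lay 7883 to 6461 bp before the 5′ end, in a stretch that also held H3K27ac, H3K4me1 and PolII of both conditions. No H3K27ac region reached the promoter window of Junb, although 9 regions lay within 10 kb and the nearest ended 285 bp before the 5′ end.

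Jund, the member of the family that is often described as expressed without a stimulus, lies at chr8:73221638-73224515 on the plus strand. Its annotated promoter held no PolII peak in either condition. The control PolII peak of 1705 bp (score 83) ran from 697 to 2401 bp after the 5′ end, and the Kap1 KD peak of 4714 bp (score 295) ran from 990 to 5703 bp. The KAP1 peak (score 133.07) lay between 380 and 1621 bp. The second annotated transcript start, at 1219 bp, was inside the KAP1 peak and both PolII peaks. The added PolII length lay downstream, past the 3′ end by 2826 bp, where the control peak had stopped 476 bp short of it. The short gene Gm11175 is annotated on the other strand within Jund, and these lists cannot assign reads to either strand.

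Ier2, which encodes a small nuclear protein, lies at chr8:87185230-87186751 on the minus strand, within 1 Mb of Junb. Its PolII peak measured 3420 bp in the control (score 234) and 3477 bp under Kap1 KD (score 457), from 154 and 158 bp before to 3265 and 3318 bp after the 5′ end. Its edges thus lay apart by only 4 and 53 bp. The KAP1 peak, with a score of 51.91 against a list minimum of 50.02, lay 680 to 1613 bp after the 5′ end across the 3′ end of the gene, wholly within PolII of both conditions. Under Kap1 KD a further PolII peak of 1938 bp lay 3106 to 1169 bp before the 5′ end, where the control list had none.

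Ier5, the largest of the Ier genes here, lies at chr1:156943497-156946766 on the minus strand with no other gene within 10 kb. Its PolII peak ran from 108 bp before to 3659 bp after the 5′ end in the control (3768 bp, score 179) and from 236 bp before to 5339 bp after it under Kap1 KD (5576 bp, score 466). The peak passed the 3′ end by 390 bp in the control and by 2070 bp under Kap1 KD. KAP1 (score 55.39) covered the promoter from 525 bp before to 485 bp after the 5′ end. H3K27ac and H3K4me1 overlapped the upstream part of that peak, over 345 and 358 of its 1011 bp, and covered the 3′ part of the gene, with regions from 1141 to 3583 bp and from 1703 to 4664 bp.

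**Figure D2:**
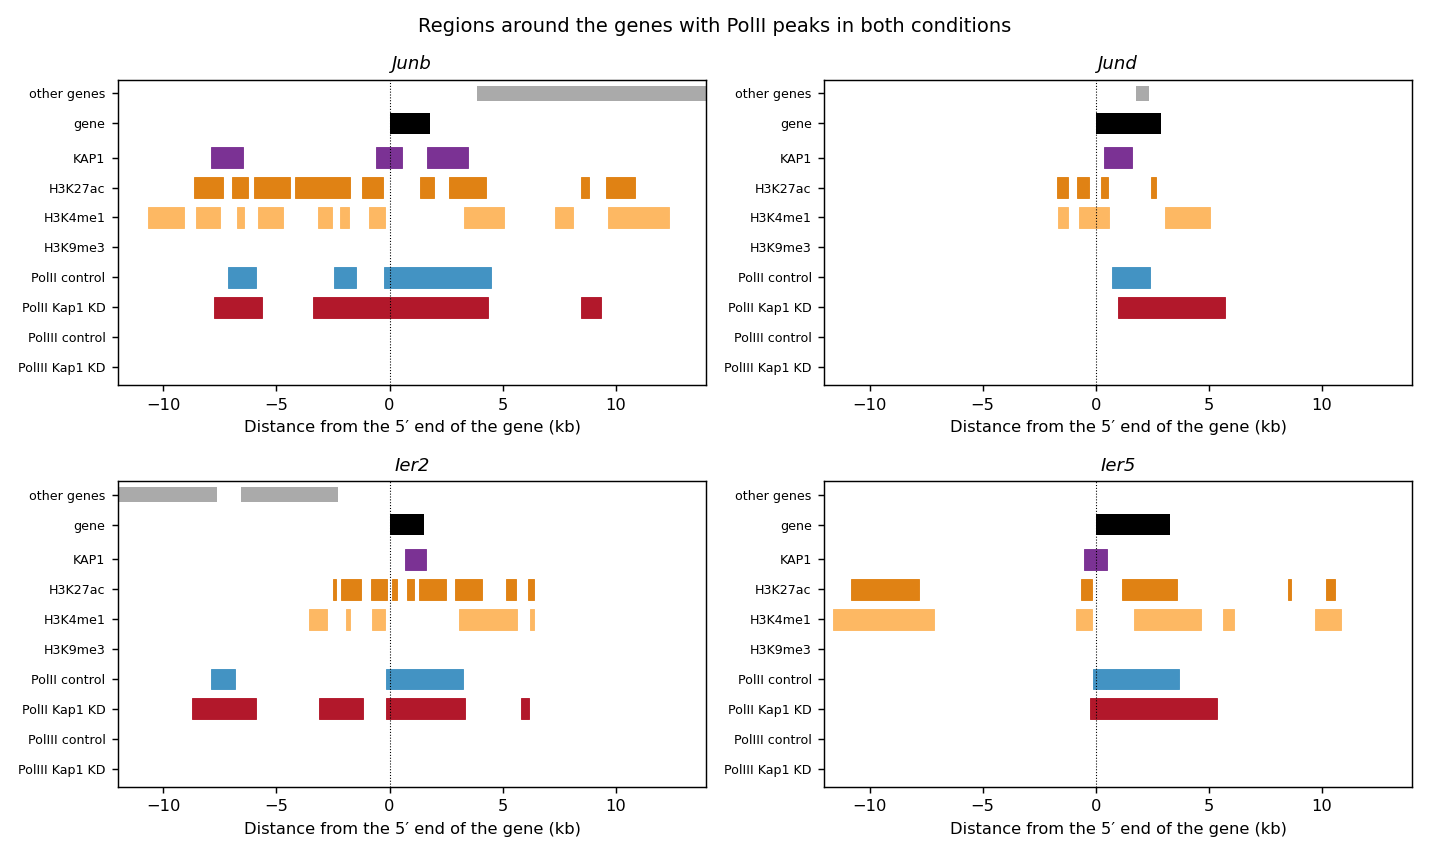
Regions of the 8 lists around Junb, Jund, Ier2 and Ier5, drawn to scale by distance from the 5′ end in kb along the strand of each gene (dotted line at 0, black bar for the gene, grey bars for other annotated genes). The Kap1 KD PolII peak of Junb extends further upstream than that of the control, those of Jund and Ier5 further downstream, and that of Ier2 has nearly the same edges.

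The span of PolII was thus 1.64 times as long under Kap1 KD as in the control at Junb, 2.76 times at Jund, 1.02 times at Ier2 and 1.48 times at Ier5. Over the 3705 protein-coding genes with a PolII peak in both conditions the median was 1.48 (quartiles 1.07 and 2.33), and 81.2% had the longer span under Kap1 KD. Of these genes 20% had a smaller ratio than Ier2, 50.0% a smaller ratio than Ier5, 55.9% than Junb and 80.8% than Jund. Of the 4 members, only Jund lay above the upper quartile and only Ier2 below the lower. With the separate upstream peak of the control counted at Junb, its control span was 5663 bp and its ratio 1.37, larger than at 44.7% of genes counted in the same way (median 1.46), an alternative chosen after the data were seen. Inside the gene and its promoter window the ratios were 1.01 at Junb, 1.11 at Jund, 1.0 at Ier2 and 1.04 at Ier5, so most of the added length lay outside the annotated genes. The control peaks already covered 100% of Junb, Ier2 and Ier5, so the inside ratios of these genes could rise only little. At Jund the control peak covered 59.2% of the gene.

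The spans themselves were set beside those of the same genes. In the control 86.5% of the 3705 genes had a shorter span than Junb, 82.2% than Ier5, 80.7% than Ier2 and 65.5% than Jund. Under Kap1 KD the shares were 86.6% for Junb, 78.7% for Ier5, 66.9% for Ier2 and 75% for Jund. Jund in the control and Ier2 under Kap1 KD lay below the upper quartiles of 2465 and 4714 bp. PolII passed the annotated 3′ end at 3 of these 4 genes in the control and at all 4 under Kap1 KD. Among the 702 genes of the same range of lengths with PolII in both conditions, it did so at 35.6% in the control and 44.7% under Kap1 KD. The scores of these peaks were 1.95 (Ier2) to 3.55 (Jund) times as high under Kap1 KD, around the median of 2.23 over the 3705 genes. The meaning of the score was not stated and it was not scaled between the lists.

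**Figure D3:**
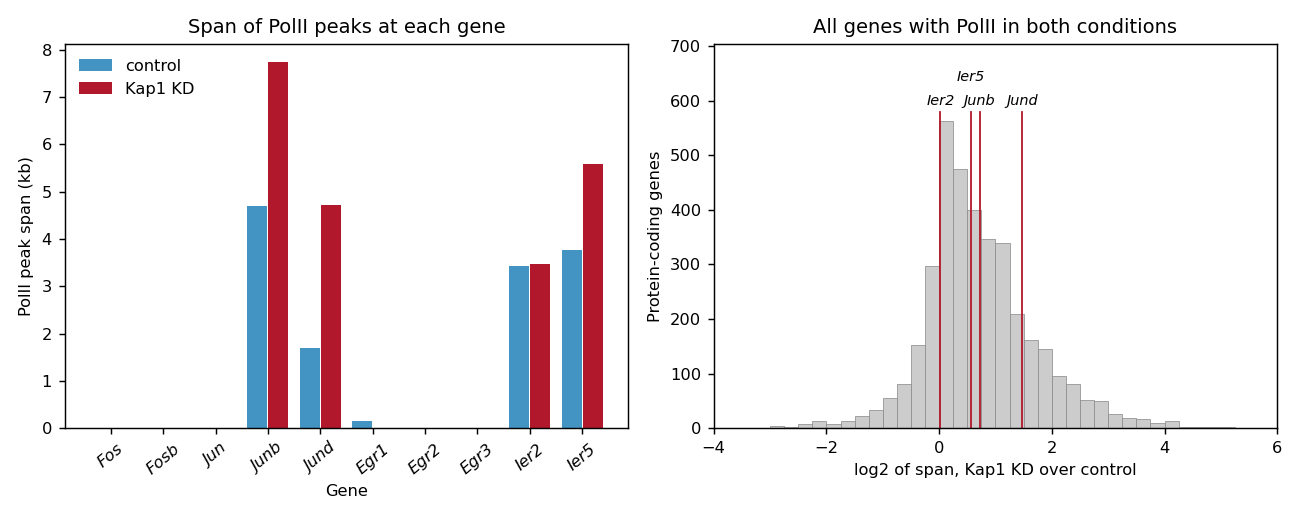
Left, PolII peak span in kb at each of the 10 genes in the control (blue) and under Kap1 KD (red), 1 library each. Right, the log2 ratio of the Kap1 KD to the control span over the 3705 protein-coding genes with PolII in both, with lines at Ier2 (ratio 1.02), Ier5 (1.48), Junb (1.64) and Jund (2.76), which lie above 20% to 80.8% of these genes.

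Egr1, an early zinc finger factor of the growth response, lies at chr18:35020861-35024638 on the plus strand. Its PolII peak in the control measured 162 bp, from 78 bp before to 83 bp after the 5′ end, with a score of 14 against a list minimum of 11. No PolII peak was called within 10 kb of it under Kap1 KD. The peaks of that list are numbered in genome order and no number was missing between those on either side of Egr1, 154 kb apart. Calls dropped before the numbering would not show in it. KAP1 (score 97.29) covered the promoter from 381 bp before to 846 bp after the 5′ end, and H3K27ac was no nearer than 1547 bp before it.

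Egr2, a related factor best known from the hindbrain and from myelinating cells, lies at chr10:66998223-67004936 on the plus strand and was the only member with H3K9me3. Its KAP1 peak (score 382.24, above 88.3% of the list) ran from 2880 to 4102 bp after the 5′ end, and 729 of its 1223 bp lay in an H3K9me3 region. A second H3K9me3 region of 136 bp lay in the coding exon, from 5267 to 5402 bp. The last annotated transcript start, at 3208 bp, was inside the KAP1 peak. No PolII was called in the gene, and the Kap1 KD peak within 10 kb (1803 bp, from 12410 to 14212 bp after the 5′ end) lay over the 5′ end of the neighbouring gene Ado.

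Egr3, the third zinc finger member, lies at chr14:70477252-70479964 on the plus strand and had a single region within 10 kb, a KAP1 peak (score 59.93) from 863 to 1829 bp after the 5′ end. Since KAP1 is known to sit on the zinc finger exons of other genes, the zinc finger parts of Egr1, Egr2 and Egr3 were located in the annotated coding sequences by the spacing of cysteines and histidines, after the KAP1 positions had been seen. Each gene held 3 such fingers over 237 bp, and KAP1 peaks covered 0 bp of them in all 3 genes. H3K9me3 covered 85 bp (35.9%) of those in Egr2.

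Fos, the first AP-1 partner of Jun, lies at chr12:86814840-86818223 on the plus strand. Within 10 kb it had 4 H3K4me1 regions and no region of any other list, and the nearest of the 4 ended 665 bp before the 5′ end. From the promoter the nearest PolII peak was 1.79 Mb away in the control and 98.8 kb away under Kap1 KD, and the nearest KAP1 peak was 320 kb away. Jun, the founding AP-1 subunit, lies at chr4:94715725-94718913 on the minus strand. Its nearest KAP1 peak was 2.16 Mb away and its nearest PolII peaks were 5.76 Mb away in the control and 4.07 Mb away under Kap1 KD. For the Kap1 KD list, 1 PolII number was missing between the peaks that flank Jun, 9.63 Mb apart, and in the control list none was missing.

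Fosb, which can replace Fos in AP-1, lies at chr7:19888070-19895394 on the minus strand. It had small regions of H3K27ac (112 bp) and H3K4me1 (138 bp) in its first part and no PolII peak within 10 kb in either condition. Downstream of its 3′ end a KAP1 peak with a score of 3100 (above 98.7% of the list) ran from 8081 to 9428 bp after the 5′ end. It enclosed a PolIII peak of each condition, of 397 bp in the control (score 67) and of 297 bp under Kap1 KD (score 24). The lincRNA gene Gm17589 begins 9275 bp after the 5′ end of Fosb, inside the KAP1 peak and downstream of both PolIII peaks.

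The 235 bases that both PolIII peaks share, chr7:19886528-19886762, are given on the plus strand because they hold a match to the B box of PolIII genes (GTTCNANNC), in capitals, at chr7:19886658-19886666. The motif was chosen after the peaks were seen.
Stretch downstream of Fosb: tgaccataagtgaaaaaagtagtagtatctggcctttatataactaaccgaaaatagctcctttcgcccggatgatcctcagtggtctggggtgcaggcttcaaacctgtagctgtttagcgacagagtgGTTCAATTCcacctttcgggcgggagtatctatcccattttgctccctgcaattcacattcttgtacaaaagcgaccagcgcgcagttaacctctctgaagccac

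A B box match on either strand was present in 48.7% of the control PolIII peaks and 64.3% of the Kap1 KD PolIII peaks, and in 36.9% of the control PolII peaks, which differ in width. In windows of 235 bases at the peak centres it was present in 15% of the control and 24.1% of the Kap1 KD PolIII peaks, and in 7.14% of the same length before all 5′ ends. The gene transcribed at this place, if any, is not named in the annotation used here.

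**Figure D4:**
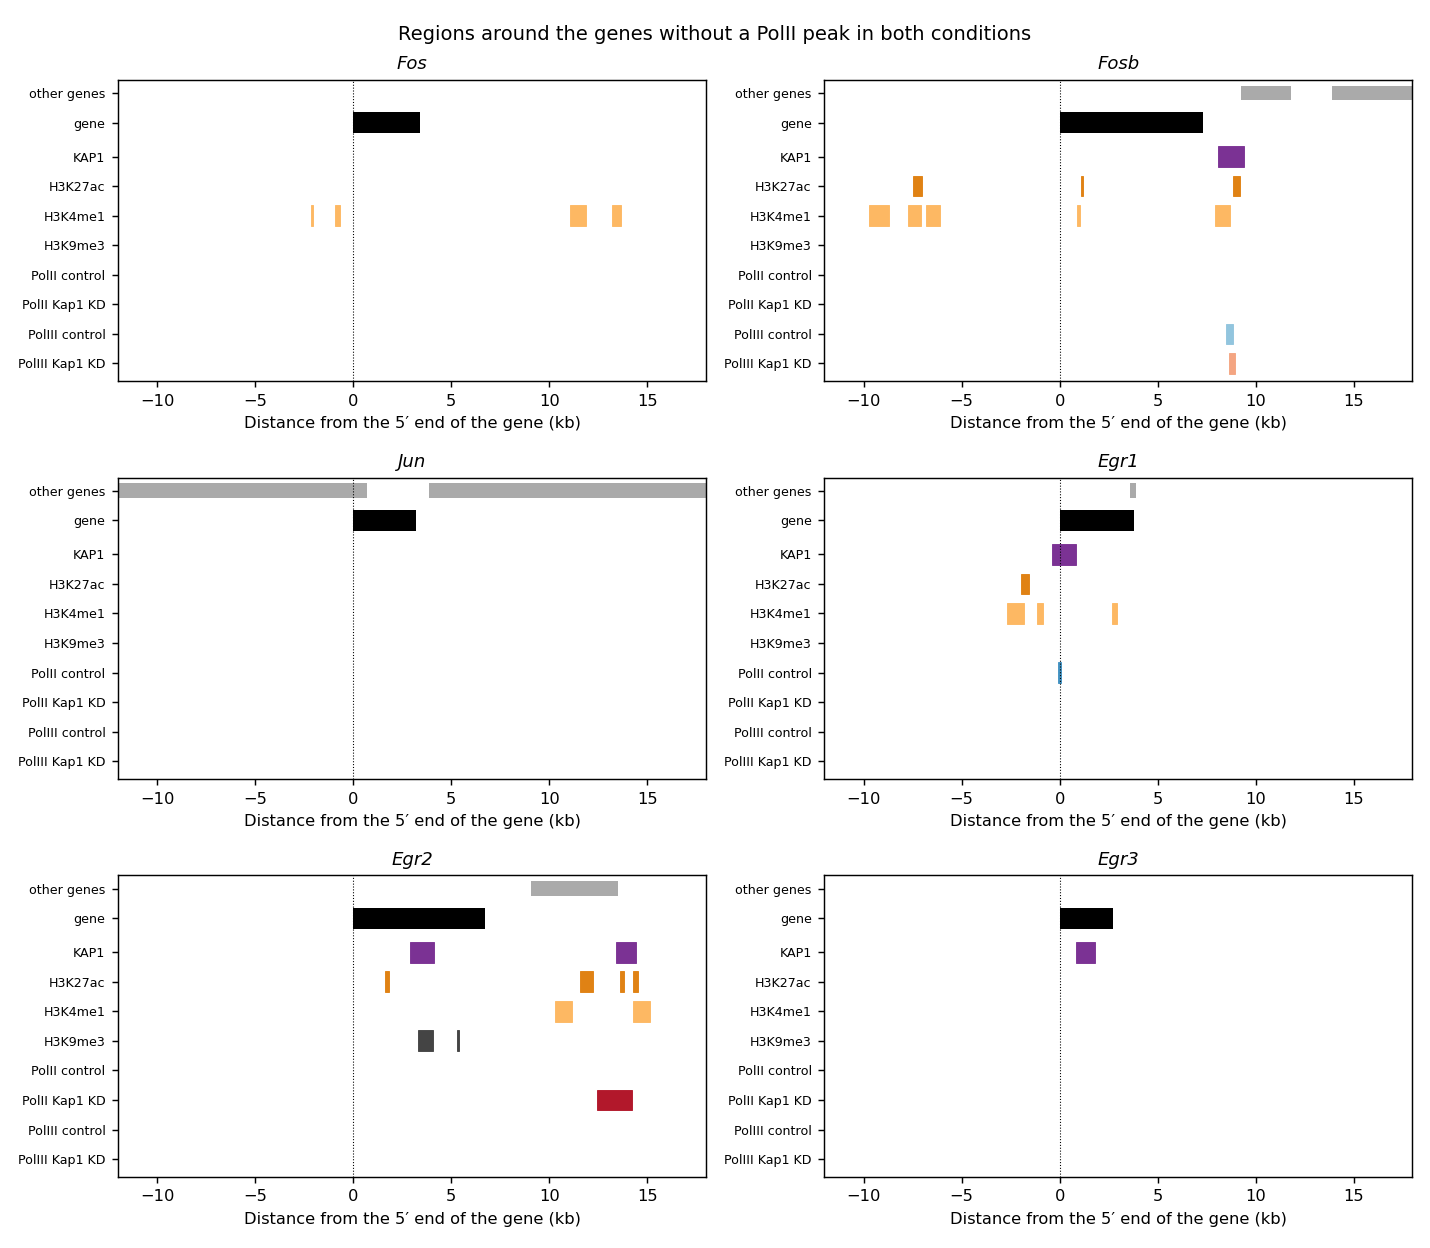
Regions of the 8 lists around Fos, Fosb, Jun, Egr1, Egr2 and Egr3, drawn as distance from the 5′ end in kb along the strand of each gene (dotted line at 0, black bar for the gene, grey bars for other annotated genes). Only Egr1 shows a PolII peak at the gene, in the control, the KAP1 and PolIII peaks of Fosb lie past its 3′ end, and Egr2 alone shows H3K9me3.

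The 5 genes with an empty promoter differed in their surroundings. Within 1 Mb, Jun had 5 H3K27ac regions, 6 H3K9me3 regions and no region of the 6 other lists, whereas the median protein-coding gene had 55 and 34 of these marks, 67 of H3K4me1 and 11 of KAP1. Fos had 2 KAP1 peaks and 2 H3K9me3 regions within 1 Mb, and only 0.286% of genes had fewer of the latter. Egr3 had 5 KAP1 peaks, 3 H3K9me3 regions and 1 PolII peak in each condition. Fosb and Egr2, whose promoters were equally empty, had 23 and 21 KAP1 peaks within 1 Mb, more than 74% and 70.9% of genes, and Fosb had 147 H3K4me1 regions. Jund had 40 KAP1 peaks and 234 H3K4me1 regions, more than 92% and 96.4% of genes. Of the promoters on chromosomes 12 and 14, which hold Fos and Egr3, 3.69% and 4.09% had control PolII, against 12.7% on chromosome 8, which holds Junb, Jund and Ier2. The share was 10.3% on chromosome 4 (Jun), 9.99% on chromosome 7 (Fosb) and 13.9% on chromosome 10 (Egr2), so the other empty promoters were not on chromosomes with as few calls. Whether the share of reads that mapped, the copy number of these stretches or a filter moves with these counts was not tested. These windows were looked at after the calls were known.

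**Figure D5:**
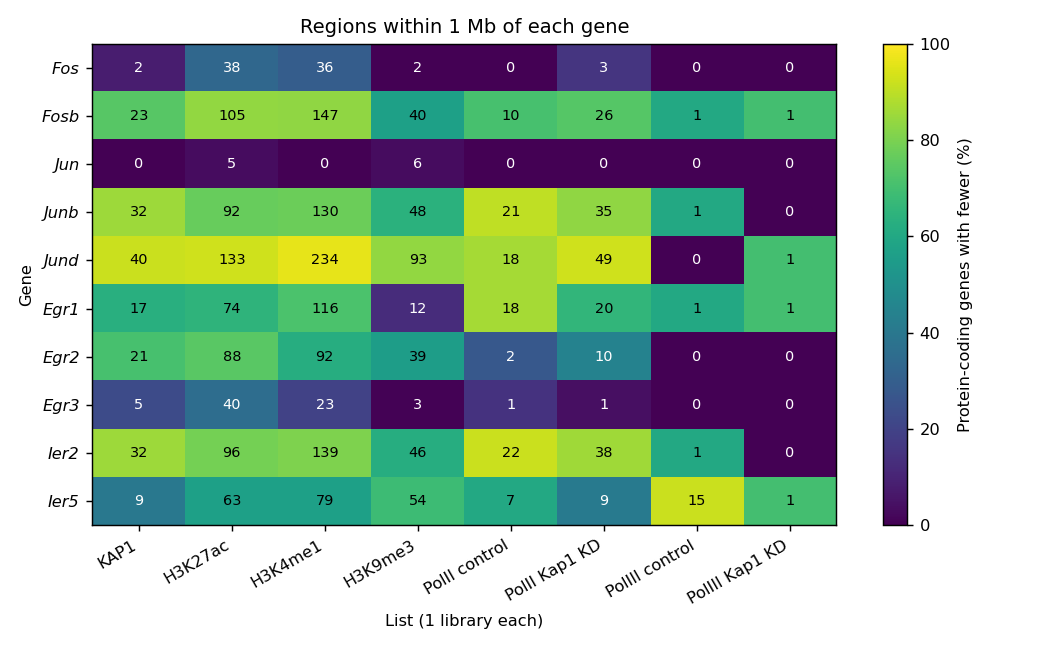
Number of regions of each list (columns) within 1 Mb of each gene (rows), printed in each cell, with the colour giving the percentage of protein-coding genes that have fewer. The windows of Jun, Fos and Egr3 hold few regions of most lists and those of Jund, Junb and Ier2 many, and the windows of Junb and Ier2 overlap.

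The promoter patterns over the 8 lists were compared with those of all genes and of 6 lists of related genes. KAP1, H3K4me1 and both PolII lists, without H3K27ac, as at Junb, were found at 56 genes, and the pattern of Egr1 (KAP1 and control PolII alone) at 26. The patterns of Ier2 and Ier5, which differ by KAP1 alone, were found at 231 and 265 genes, that of Jund at 508, and the empty pattern of the other 5 members at 13076 (58.5%). Among 36 other immediate early genes, Ctgf, a matrix protein, had the pattern of Ier2, and Klf10 and Btg2, both growth-restraining regulators, had that of Ier5. Npas4, a factor known from neurons, had that of Egr1, with a control PolII peak of 756 bp over the promoter and no Kap1 KD peak there. Unlike Egr1 it had a Kap1 KD span of 464 bp (score 68) elsewhere in the gene.

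The promoters of the 36 other immediate early genes carried PolII in the control at 21 (13.1% of all genes) and under Kap1 KD at 26 (23.3%). Of the 36, 20 had it in both (12.4% of all genes) and 1, Npas4, in the control alone (0.733%). A further 6 had it under Kap1 KD alone, against 10.9% of all genes (Dusp2, Dusp5, Nfkbia, Nr4a2, Sik1 and Zfp36). KAP1 was at 18 of the 36 (15.7% of all genes), H3K27ac at 14 (20.0%), H3K4me1 at 3 (11.9%) and H3K9me3 at 1, Egr4 (5.24%). With PolII at the gene in both conditions, 16 of 22 had the longer span under Kap1 KD, with a median ratio of 1.27 and a range from 0.543 (Ier5l) to 9.74 (Maff). This share of 72.7% was near the 81.2% of the 3705 genes (median 1.48) and the 82.6% of genes of similar length to the members (median 1.35). Of the upstream regulators and of the pausing and elongation factors described next, 9 of 9 in each list had the longer span, with medians of 1.78 and 1.59. At Ctgf the span was 5007 bp in the control and 5127 bp under Kap1 KD, whereas at Btg2 it was 972 bp and 6561 bp.

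Of 20 regulators that act upstream of these genes, 9 had PolII over the promoter in the control (13.1% of all genes) and 9 under Kap1 KD (23.3%). Of these, Srf, which binds the CArG box, had PolII under Kap1 KD alone (10.9% of all genes), and Elk3, an Ets partner of it, in the control alone (0.733%). Among 9 partners of AP-1 and Egr proteins, Atf2, Atf4 and Nab2 (3 of 9, against 12.4% of all genes) had PolII in both conditions. The Egr corepressors Nab2 and Nab1 had the patterns of Ier5 and of Jund. Of 14 pausing and elongation factors, 9 had KAP1 over the promoter (15.7% of all genes), 6 had control PolII (13.1%) and 8 had Kap1 KD PolII (23.3%). Among the markers of other cells, Cd68 had the pattern of Junb, and Col1a1 and Krt19 that of Jund. The PolII peaks at Cd68 measured 8042 bp in the control and 9612 bp under Kap1 KD. Both were longer than the gene itself (chr11:69477715-69479655) and so reached beyond it. Whether they belong to Cd68 or to a neighbouring gene was not tested.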

How the data were processed

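ChIP-seq lists of 8 libraries of Hepa 1-6 cells were analysed, and 5 inputs have no list here. Per the methods, the authors mapped reads with Bowtie to mm9, ran MACS with total input as background for KAP1 and PolII, and ran ChIP-Part for the histone marks. The program for PolIII is not given in the sources used here. The deposited KAP1, PolII and PolIII lists carry a score per peak, which was used only to describe or select peaks. The deposited histone lists hold positions alone. Read depth is unknown, so no counting error could be given.

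Positions count from 1. A region was assigned to a zone when it overlapped by at least 1 bp. Background shares were taken over 22367 protein-coding genes of GENCODE M1, without mitochondrial ones. PolII span was the summed length of peaks that overlap the gene or its promoter window. No test was made, since each group held 1 library. The overlap functions were tested on simulated data (Python 3.11.15, figures by matplotlib 3.10.9).

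The 10 genes and the gene lists were chosen with earlier results of these data known. Named from the lists were genes with the promoter pattern of a member, up to 5 per list by control PolII width, and others named were chosen after their values were seen. Results for 2 genes of the lists are not reported here. Alternatives were other promoter widths and windows, any transcript start, a larger overlap, peaks above the median score, a background of similar gene lengths, merged peaks and PolII lists of equal length.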

Additional observations from a re-analysis of the deposited data

How the results depend on the processing

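No paired analysis was possible because no result comes from a test and each group holds 1 library, so no library could be left out either. Of the alternatives for the counts of members, 16 moved the count by over 1.5 times, and in these the cause was not tested. The share of all genes at these settings was not computed, so whether all genes moved alike is not known. With the promoter taken as 1000 bp to each side, KAP1 was at 6 members and H3K4me1 at 7, and at 100 bp H3K27ac was at 0 and H3K4me1 at 1. With the start of any transcript, KAP1 was at 5 and H3K9me3 at 1. With an overlap of at least 0.5 of the promoter window, H3K27ac was at 1 and H3K4me1 at 1, and with at least 0.5 of the gene body, KAP1 was at 1, H3K27ac at 1, H3K4me1 at 1 and H3K9me3 at 0. With peaks at or above the median score alone, KAP1 was at 1 promoter, in 3 gene bodies and within 10 kb of 4 members. Within 50 kb, H3K9me3 was at 5. The PolII counts, between 3 and 5 as reported, kept within that factor under every alternative tried, and the PolIII counts were too low (0 or 1) to show any dependence. Of the span ratios, 2 left it, both when counting length inside the gene and its promoter window alone, where the ratio was 1.01 at Junb and 1.11 at Jund because the added length lies outside. At Junb the control peak already covered the whole gene, so that ratio could rise only little. Counting peaks that overlap a peak of the other condition, added after the data were seen, gave 1.37 at Junb and left the other 3 ratios as they were. Cutting the Kap1 KD list to the 5015 highest scores kept the peaks of these 4 genes, which rank between 116 and 596, and could not alter their widths, so it says nothing about the ratios. Against genes of similar length the background share in the gene body was 26.0% for H3K27ac and 12.9% for H3K9me3 and that of PolIII fell to 0.853% in the control and 0.175% under Kap1 KD. With 1 library per list and no read counts, neither replicate error nor a limit of detection can be stated.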
